A study of Mus musculus with 6 samples.

Results

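The genes described here are 43 mouse genes of the unfolded protein response and of the chaperone families, chosen by symbol from textbook membership and divided by role into 15 folding factors of the endoplasmic reticulum (ER), 6 genes of ER-associated degradation (ERAD), 10 stress regulators and 12 cytosolic or mitochondrial heat shock genes. Of the 43, 41 had a probe set annotated to their symbol alone, and 39 of 10302 genes tested in the series were members. Hsp90ab1 and Hsf1 were not analysed here, and Hspa1a and Hspa1b lay under the signal minimum, a log2 intensity of 4, on all 6 arrays; a probe set was tested where at least 3 arrays reached it. Where a gene had several probe sets, the one with the highest mean over the 6 arrays was used.

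The arrays compared cells of 2 genotypes, Gata3-/- and Gata3+/-, with 3 arrays each. Gata3 encodes a transcription factor of the zinc finger class on which the first steps of the T cell lineage depend. The cells of both genotypes were derived from embryonic stem cells (ESCs) by culture on OP9 and OP9-DL1 stroma, a bone marrow stromal line without and with the Notch ligand Delta-like 1, with the cytokines Flt3L and IL-7 added, and were sorted as T-cell progenitors. The Gata3+/- cells also lack 1 working copy of the gene, and no wild type cells were among the samples. The sources used here do not say how the alleles were disrupted, how many ESC clones stood behind each genotype or which surface markers were sorted on. The titles call the replicates biological, but nothing says that they came from separate cultures, so p-values measure the spread between these arrays.

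The T-cell-progenitor label was not borne out by most of the T lineage marker genes on these arrays. Of 9 measured T lineage markers, 8 lay under the minimum on all arrays, Cd3e, Ptcra, Bcl11b, Rag1 and Il2ra among them. The other, Cd5, reached it on all 6 arrays. Cd5 was higher in Gata3-/- cells without overlap, by 1.44 (adjusted p = 0.0764 by limma). The list's sums, Cd5 included, were 93 to 151 in Gata3-/- and 65 to 82 in Gata3+/- cells. Gata3 itself measured 5.87, 6.44 and 5.48 on Gata3-/- arrays and 5.39, 6.40 and 5.86 on Gata3+/- arrays, a difference of 0.05 (95% interval -0.80 to 0.89). Where its probes lie relative to the disrupted part is not known, so this neither checks nor contradicts the genotypes.

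Proteins that enter the ER fold there with the help of chaperones and of enzymes that form disulfide bonds, and those that fail are returned to the cytosol for degradation by ERAD. When unfolded protein accumulates, the sensors Ire1 (gene Ern1), Perk (gene Eif2ak3) and Atf6 respond. They act through spliced Xbp1, through Atf4, and through a cleaved form of Atf6 itself, and raise the chaperone genes. Perk also slows new translation. The heat shock response is a separate programme of the cytosol and nucleus, driven by Hsf1. In blood cells, a strong Xbp1-dependent programme is best known from plasma cells and from some dendritic cells.

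ER folding factors were mostly lower in Gata3-/- cells, with 13 of 15 below 0 and a median difference of -0.29, whereas regulators stood on both sides of 0. Of 8 tested heat shock genes, 7 were also below 0, with a smaller median of -0.09. Between genotypes 7 of the 8 overlapped, as did 6842 of all 10302 genes tested. By limma's test with Benjamini-Hochberg adjustment over all probe sets, 3 of 39 members fell in Gata3-/- cells and 0 rose. The 3 were Pdia6 and Dnajc3, both ER folding factors, and Atf6, the sensor. Over all genes tested, 2.41% fell and 2.86% rose at the same threshold of adjusted p 0.05, 5.27% in all, so the members' total of 3 of 39 was not far from the background. Without any 1 of the 6 arrays, 0 members passed the threshold, with 10 to 15 at an unadjusted p under 0.05, and 0 to 4 of the 10302 genes passed it.

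Beyond the threshold, the order of the arrays was compared. The 3 Gata3-/- values lay all below the 3 Gata3+/- values for 16 members and all above them for 5, while 18 overlapped. Among all genes tested the shares were 16.7% below and 16.9% above. ER folding factors supplied 10 of the 16 lower members and none of the 5 higher ones. At an unadjusted p under 0.05, 13 members were lower and 3 higher, and the shares over all genes were 12.3% lower and 13.6% higher. Of 42 other tested probe sets of the members, 38 shared the sign of the gene's own, and the exceptions were 1 each of Canx, Edem1, Xbp1 and Hsp90aa1.

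**Figure D1:**
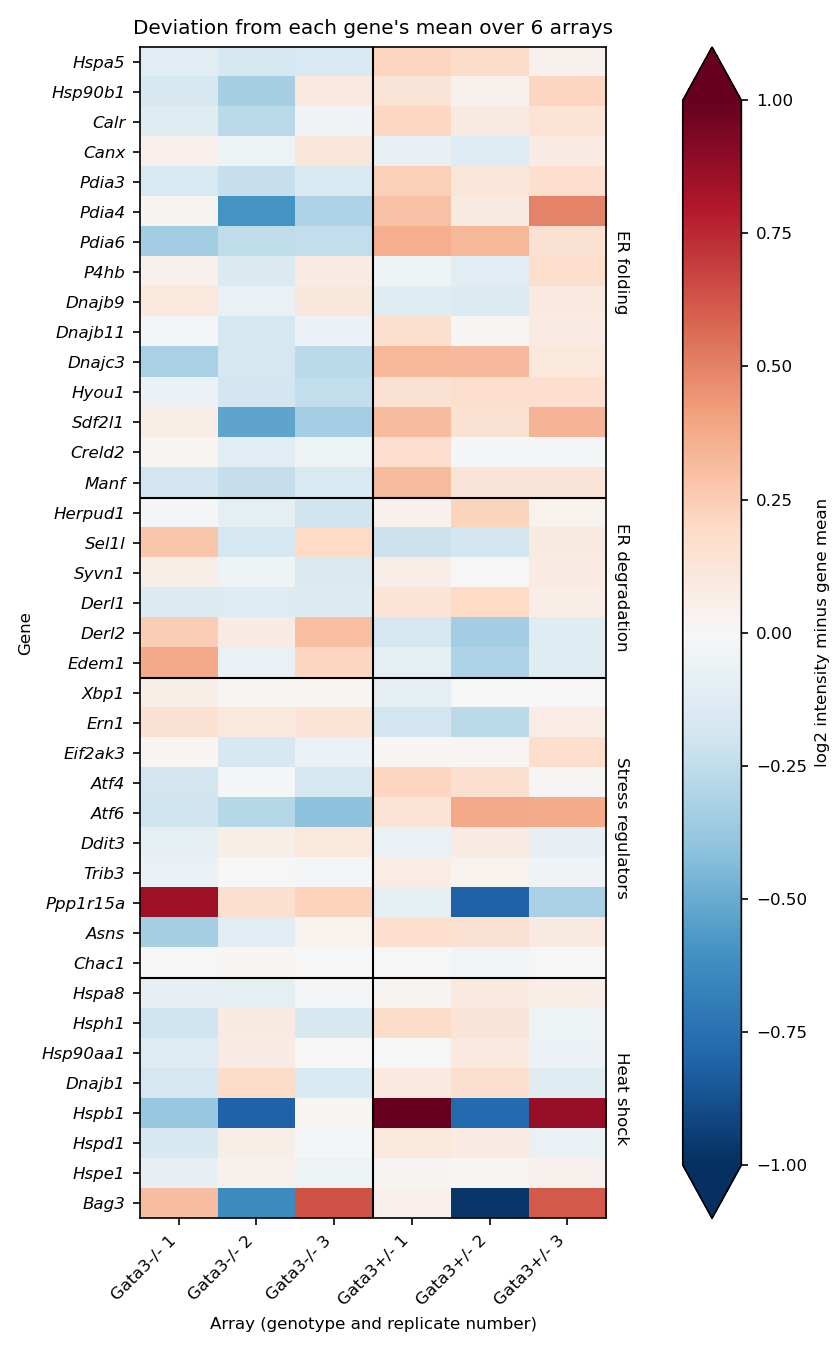
Each row is a member and each column an array, with the 3 Gata3-/- arrays left of the 3 Gata3+/- arrays. Colour gives the log2 intensity minus that gene's mean over the 6 arrays. The lower values of the ER folding factors fill most of the left side of the top block, and Hspb1 and Bag3 vary more between arrays than between genotypes.

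Pdia6, a protein disulfide isomerase of the ER, is encoded on chromosome 12. Its log2 intensity was 12.06, 12.15 and 12.16 on the Gata3-/- arrays, against 12.77, 12.74 and 12.56 on the Gata3+/- arrays. The genotypes did not overlap, and the gap between them exceeded the range within either. The means were 12.12 ± 0.06 in Gata3-/- and 12.69 ± 0.11 in Gata3+/- cells (SD, n = 3 each). The difference of -0.57 (SE 0.086, 95% interval -0.78 to -0.35) was 1.48-fold lower, with an adjusted p of 0.0363 by limma.

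Dnajc3 (p58IPK) is a DnaJ cochaperone of Hspa5 and lies on chromosome 14. It measured 10.40, 10.56 and 10.46 on the Gata3-/- arrays and 11.06, 11.05 and 10.83 on the Gata3+/- arrays. All Gata3-/- values were the lower ones. The difference was -0.51 on the log2 scale (SE 0.095, 95% interval -0.74 to -0.27), 1.42-fold lower, and limma's adjusted p was 0.0481. Its 4 other tested probe sets were all lower too, by -0.21 to -0.42, and none passed the threshold.

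Pdia6, Dnajc3 and Hspa5 (BiP, the Hsp70 of the ER) share a stretch upstream of their start that is shown here because it is the known binding site of Atf6 with NF-Y in ER chaperone genes, the ER stress element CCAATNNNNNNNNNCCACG. The 250 bases before each start, 5′ to 3′ from RefSeq on GRCm38.p6, are in lower case with the fixed letters of the element in capitals.
Pdia6, chr12:17266339-17266588, + strand: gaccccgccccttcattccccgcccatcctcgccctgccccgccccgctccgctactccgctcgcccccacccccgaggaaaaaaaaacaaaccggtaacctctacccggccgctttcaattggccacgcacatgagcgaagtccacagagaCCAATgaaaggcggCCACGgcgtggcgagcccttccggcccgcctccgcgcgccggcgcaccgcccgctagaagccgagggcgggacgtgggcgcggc
Dnajc3, chr14:118937682-118937931, + strand: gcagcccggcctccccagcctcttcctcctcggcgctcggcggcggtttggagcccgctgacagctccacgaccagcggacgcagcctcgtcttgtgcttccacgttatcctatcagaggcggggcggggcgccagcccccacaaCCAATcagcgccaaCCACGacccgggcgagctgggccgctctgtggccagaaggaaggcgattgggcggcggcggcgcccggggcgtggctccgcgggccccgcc
Hspa5, chr2:34771840-34772089, + strand: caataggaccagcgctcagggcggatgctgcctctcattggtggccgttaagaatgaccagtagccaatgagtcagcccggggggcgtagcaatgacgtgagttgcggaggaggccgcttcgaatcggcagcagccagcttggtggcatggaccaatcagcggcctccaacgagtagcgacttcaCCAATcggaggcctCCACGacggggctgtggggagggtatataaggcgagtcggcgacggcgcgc

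The element was searched on both strands of windows of 300 bases, 250 before and 50 after each RefSeq start, as exact letters. Windows were tabulated for 35 of the 43 members. It stood in 7 of 13 windows of ER folding genes (53.8%), against 39 of 32851 windows of all genes (0.119%). Besides the 3 windows above, the matches before the start were the following, each written in the element's own direction with its fixed letters in capitals, the gene's strand called same. Distances run from the end of the match that is farther from the start. The last line shows Herpud1, which carries a second form, ATTGGNCCACG, found in 12 of all windows (0.0365%).
Calr, chr8:84847075-84847093, opposite strand, far end 162 bases before the start: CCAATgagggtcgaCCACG
Hsp90b1, chr10:86705638-86705656, same strand, far end 212 bases before the start: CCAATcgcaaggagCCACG
Hsp90b1, chr10:86705533-86705551, opposite strand, far end 107 bases before the start: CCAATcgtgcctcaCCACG
Canx, chr11:50325800-50325818, same strand, far end 145 bases before the start: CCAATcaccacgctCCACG
Creld2, chr15:88819520-88819538, opposite strand, far end 126 bases before the start: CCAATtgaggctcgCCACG
Syvn1, chr19:6046532-6046550, same strand, far end 44 bases before the start: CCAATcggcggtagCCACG
Herpud1, chr8:94386377-94386387, same strand, far end 52 bases before the start: ATTGGgCCACG

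Together with Dnajb11, whose second-form match lies after its start, 10 members carried either form, and 0.155% of all windows did. Of these 10, 9 had a difference below 0 and 6 were lower in Gata3-/- without overlap, with a median difference of -0.23. Over all genes tested, 5492 of 10302 were below 0 and 16.7% were lower without overlap. Canx was the exception above 0. ER folding genes with a window but neither form were Pdia3, Pdia4, P4hb, Dnajb9 and Sdf2l1. Of these, Pdia3 (-0.35), Pdia4 (-0.59) and Sdf2l1 (-0.53) were also lower without overlap, while P4hb (-0.02) and Dnajb9 (0.11) overlapped. Whether the difference goes with the element was not tested. The UPR element TGACGTGG, a site of Xbp1, stood in 0.676% of all windows and in 0 of 39 windows of members. A match describes letters in a window and not binding in these cells.

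Hspa5 itself measured 14.42, 14.37 and 14.38 on the Gata3-/- arrays and 14.75, 14.72 and 14.58 on the Gata3+/- arrays. The genotypes did not overlap, but the difference of -0.29 (95% interval -0.48 to -0.10) missed the threshold, with an adjusted p of 0.0890 by limma. Hspa5 is the master chaperone of the ER and the usual readout of its stress.

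Pdia3 (ERp57), the isomerase that works with calreticulin and calnexin, measured 13.95, 13.87 and 13.96 in Gata3-/- cells, against 14.34, 14.23 and 14.28 in Gata3+/- cells. Manf, a small secreted ER protein induced by ER stress, measured 13.10, 13.05 and 13.14 in Gata3-/- cells, against 13.61, 13.42 and 13.42 in Gata3+/- cells. Neither gene overlapped between genotypes. Pdia3 differed by -0.35 (SE 0.070, adjusted p = 0.0548) and Manf by -0.39 (SE 0.083, adjusted p = 0.0623), both close to the threshold of limma's test but not past it.

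Hyou1 (Grp170), an Hsp70-like nucleotide exchange factor of Hspa5, differed by -0.33, with an adjusted p of 0.0738. Calr, the lectin chaperone calreticulin, differed by -0.29. Pdia4 (ERp72) and Sdf2l1, a partner of the ER DnaJ proteins, had wide intervals, at -0.59 (-1.06 to -0.11) and -0.53 (-0.95 to -0.12). These 4 were lower on all Gata3-/- arrays and did not pass the threshold. Dnajb11 (ERdj3) was also lower without overlap, by only -0.17.

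The other 5 ER folding factors overlapped between genotypes. Hsp90b1 (Grp94), the Hsp90 of the ER, differed by -0.26, with Gata3-/- replicate 3 at 14.30 inside the Gata3+/- range of 14.25 to 14.41. Creld2 differed by -0.10, P4hb, the classic protein disulfide isomerase, by -0.02, Canx (calnexin) by 0.08 and Dnajb9 (ERdj4), a target of Xbp1, by 0.11. Across all 15 the median difference was -0.29, beside -0.02 over all genes tested, 13 lay below 0, and 9 were lower at an unadjusted p under 0.05.

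**Figure D2:**
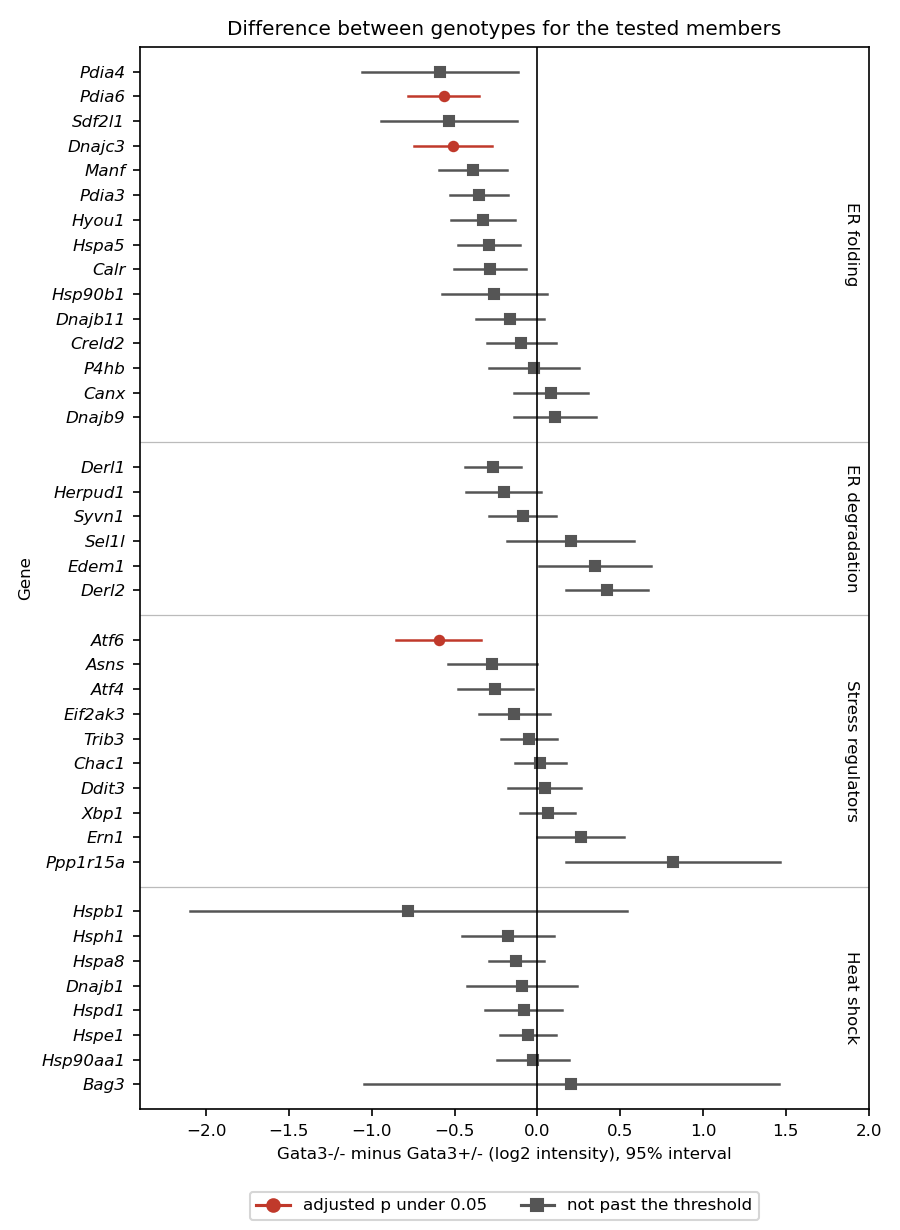
Points give the Gata3-/- minus Gata3+/- difference in log2 intensity of each of the 39 tested members, lines its 95% interval, and circles the members with an adjusted p under 0.05. Members are ordered by their difference within each role, and the ER folding factors run from -0.59 to 0.11.

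Centred on each gene's own mean, the ER folding factors had medians of -0.05, -0.19 and -0.15 on the Gata3-/- arrays, against 0.21, 0.09 and 0.14 on the Gata3+/- arrays. All 3 Gata3-/- arrays were therefore on the low side, and replicate 1 was nearest to the other genotype.

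Cell type markers moved with the same contrast. Summed intensity of the 11 macrophage and monocyte markers was 81142 to 96377 on Gata3-/- arrays and 108742 to 129016 on Gata3+/- arrays. Of the 11, 8 were lower without overlap and 2 overlapped, while Cd68, on chromosome 11, was higher without overlap (0.53). For the plasma and B cell list the sums were 2781 to 4870 in Gata3-/- and 5379 to 7352 in Gata3+/- cells, with 6 of its 9 measured genes reaching the minimum. Ighm carries most of this sum on every array, and the gap between the genotypes comes from it. Within that list 2 genes were lower without overlap, Ighm (-1.32) and Prdm1 (-0.39), and 2 higher, Igj (4.37) and Irf4 (2.25), none past the threshold. Dendritic cell markers were higher in sum, at 37805 to 48055 in Gata3-/- and 22304 to 28809 in Gata3+/- cells, from 8 genes of which 7 were tested. That list was split too, with 3 genes lower and 3 higher without overlap. Siglech (-4.50, under the minimum on all Gata3-/- arrays) and Irf8 (-0.67) fell, Zbtb46 rose (1.89), and Ccr7 (2.42), which carries most of the sum in Gata3-/- cells, did not pass the threshold. The part of these cell types in the ER folding difference was not tested. In sorted bulk cells, fewer cells of a type and less RNA per cell cannot be told apart.

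Genes of ERAD stood on both sides of 0. By limma, 0 of 6 passed the threshold, with 2 higher and 1 lower at an unadjusted p under 0.05, and their median difference was 0.06. The 2 higher ones, Derl2 and Edem1, lie on chromosomes 11 and 6, and the 4 genes outside chromosomes 6, 11 and 14 had a median of -0.15, with 3 of them below 0. With each chromosome's median level taken off each array, Derl2 was at 0.07 but Edem1 still at 0.30. The shift that this removes need not equal the median difference of the chromosome's genes. All tested genes of chromosome 6 had a median difference of 0.0016, and the nearest tested neighbours of Edem1 a median of -0.12. Both Derlins, channel-forming proteins of the retrotranslocation site, are described first.

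Derl1 measured 12.53, 12.55 and 12.54 in Gata3-/- cells, against 12.81, 12.87 and 12.74 in Gata3+/- cells. Derl2 measured 12.22, 12.06 and 12.28 in Gata3-/- cells, against 11.81, 11.63 and 11.86 in Gata3+/- cells. Neither overlapped between genotypes. Derl1 differed by -0.27 (95% interval -0.44 to -0.10, adjusted p = 0.0869) and Derl2 by 0.42 (95% interval 0.17 to 0.67, adjusted p = 0.0757). Of 3 other Derl1 probe sets, 1 fell by 0.44, with an adjusted p of 0.0383 by limma, and the others differed by -0.31 each without passing. The other Derl2 probe set differed by 0.35, with an adjusted p of 0.0590.

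Edem1, a lectin-like protein that selects misfolded glycoproteins, measured 12.01, 11.57 and 11.85 in Gata3-/- cells, against 11.54, 11.33 and 11.51 in Gata3+/- cells. All Gata3-/- values were higher, by 0.35 on average (95% interval 0.01 to 0.69, adjusted p = 0.202). Its other probe set overlapped, at -0.03, and the mean of both probe sets differed by 0.16. Herpud1, which helps assemble the ubiquitin ligase complex, measured 10.63, 10.55 and 10.44 in Gata3-/- and 10.68, 10.86 and 10.68 in Gata3+/- cells, with a difference of -0.20 and no overlap. Of the ligase itself, Syvn1 (Hrd1) differed by -0.09 and its partner Sel1l by 0.20, both overlapping.

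Among the stress regulators, Atf6 was the 1 that passed the threshold. Atf6, on chromosome 1, is the membrane-bound sensor whose cleaved cytosolic domain enters the nucleus. Its log2 intensity was 9.47, 9.39 and 9.27 on the Gata3-/- arrays and 9.81, 10.06 and 10.05 on the Gata3+/- arrays. The genotypes did not overlap. The difference of -0.60 (SE 0.103, 95% interval -0.85 to -0.34) was 1.51-fold lower, and limma's adjusted p was 0.0430. Its 2 other probe sets differed by -0.36 (adjusted p = 0.111) and -0.43 (adjusted p = 0.194), neither past the threshold, and the second overlapped between genotypes.

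Ppp1r15a (Gadd34), which restarts translation by directing dephosphorylation of eIF2α, had the largest positive difference among the tested members. It measured 10.13, 9.44 and 9.51 on the Gata3-/- arrays, against 9.18, 8.47 and 8.96 on the Gata3+/- arrays. Every Gata3-/- value was above every Gata3+/- value, but both genotypes spread widely, with SDs of 0.38 in Gata3-/- and 0.37 in Gata3+/-. The difference of 0.82 (95% interval 0.18 to 1.47), 1.77-fold higher, did not pass the threshold, at an adjusted p of 0.136 by limma.

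Atf4 and its target Asns lay on the other side of 0 from Ppp1r15a. Atf4, the transcription factor of the branch, measured 10.90, 11.07 and 10.91 in Gata3-/- cells, against 11.30, 11.25 and 11.10 in Gata3+/- cells. Asns, asparagine synthetase, measured 10.40, 10.62 and 10.76 in Gata3-/- cells, against 10.90, 10.88 and 10.82 in Gata3+/- cells. Both were lower without overlap, Atf4 by -0.25 (adjusted p = 0.172) and Asns by -0.27 (adjusted p = 0.211).

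Ddit3 (Chop), the death-associated factor downstream of Atf4, measured 8.40, 8.55 and 8.60 in Gata3-/- and 8.43, 8.57 and 8.42 in Gata3+/- cells. The genotypes overlapped, and the 95% interval of the difference, -0.18 to 0.27, spans 0. Trib3 and Chac1, further Atf4 targets, lay close to the minimum of log2 4 on every array, Trib3 no higher than 4.14 and Chac1 no higher than 4.32, so that a decrease in either could hardly be seen. Eif2ak3 (Perk), on chromosome 6, differed by -0.14, with overlap, beside a median of 0.38 for its nearest tested neighbours.

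Xbp1 is the factor whose mRNA Ire1 splices. It measured 13.18, 13.15 and 13.15 in Gata3-/- cells, against 13.03, 13.13 and 13.14 in Gata3+/- cells. The lowest Gata3-/- value stood just above the highest Gata3+/- value, and the difference was 0.06 on average (95% interval -0.11 to 0.23, adjusted p = 0.642). The probe set gives total signal and does not tell spliced from unspliced mRNA. Ern1 (Ire1) measured 8.89, 8.84 and 8.87 in Gata3-/- cells and 8.54, 8.46 and 8.81 in Gata3+/- cells, a difference of 0.26 with an adjusted p of 0.220. Across the 10 regulators the median difference was -0.02. It is set by the middle genes, Trib3 (-0.05) and Chac1 (0.02), which both lay close to the signal minimum.

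In the windows of the regulators, the amino acid response element TGATGNAA, a site of Atf4 with C/EBP proteins, stood in 3 of 9 (33.3%), against 3.97% of all windows. These 3 were Asns, Chac1 and Trib3. The same element was found before Herpud1.

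**Figure D3:**
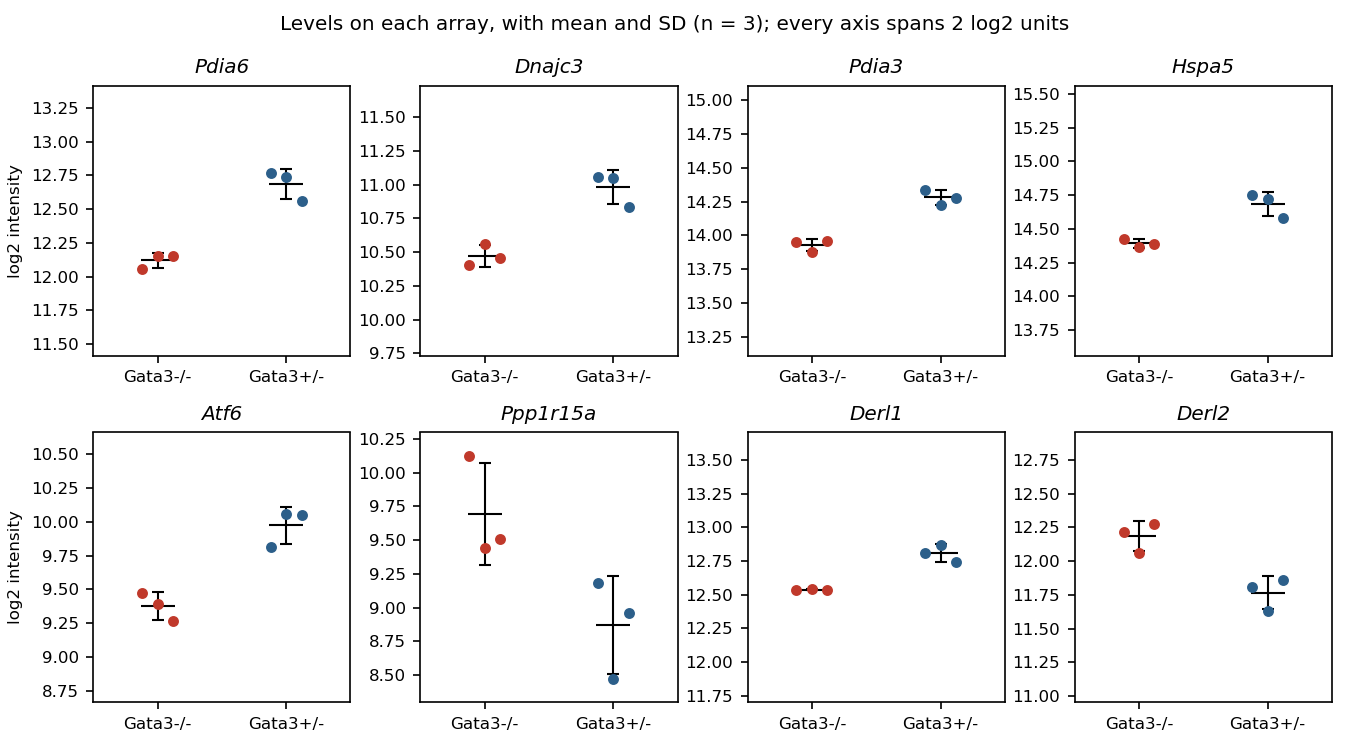
Log2 intensity on each array for selected members, Gata3-/- left of Gata3+/-, with 1 point per array, a line at each genotype's mean and bars of 1 SD (n = 3), on axes that each span 2 log2 units. The 3 members past the threshold, Pdia6, Dnajc3 and Atf6, show no overlap, and neither do Derl1, Derl2 and Ppp1r15a, which did not pass it.

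The heat shock genes showed 0 of 8 tested members past the threshold by limma and 0 at an unadjusted p under 0.05. Their median difference was -0.09, beside -0.02 over all genes tested, and 7 of the 8 lay below 0. Hspa1a and Hspa1b, the stress-inducible Hsp70 pair and near-identical copies, had log2 intensities of 2.37 to 2.39 and 3.12 to 3.55, under the minimum on all arrays.

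Hspa8 (Hsc70), the constitutive cytosolic Hsp70, measured 15.47, 15.45 and 15.54 in Gata3-/- cells, against 15.58, 15.65 and 15.62 in Gata3+/- cells. It was the 1 heat shock member without overlap, at -0.13 (95% interval -0.29 to 0.04, adjusted p = 0.324). Hsph1 (Hsp110), an exchange factor of Hsp70, measured 10.33, 10.62 and 10.37 in Gata3-/- cells, against 10.72, 10.66 and 10.48 in Gata3+/- cells, and overlapped. Dnajb1 (Hsp40) differed by -0.09 and Hsp90aa1 by -0.03. The probe sets of Hspa8, Hspb1, Asns and Trib3 are of a class that the array's maker marks as possibly binding other, similar transcripts. Those of Canx, Hyou1, Syvn1, Derl1, Xbp1 and Hspe1 are of another class, marked as shared among several transcripts.

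Hspd1 (Hsp60) and Hspe1 (Hsp10) form the mitochondrial chaperonin. Hspd1 measured 13.69, 13.91 and 13.83 in Gata3-/- and 13.96, 13.94 and 13.79 in Gata3+/- cells, a difference of -0.08, and Hspe1 differed by -0.06. Both overlapped between genotypes. The genes start head to head and share a promoter, which holds overlapping matches to the heat shock element GAANNTTCNNGAA, a site of Hsf1. They are shown in the element's own direction, with its fixed letters in capitals and the strand and distance relative to Hspe1.
Hspe1, chr1:55088059-55088071, opposite strand, far end 89 bases before the start: GAAggTTCtaGAA
Hspe1, chr1:55088064-55088076, same strand, far end 84 bases before the start: GAAccTTCcgGAA
The element stood in 4 of 11 windows of heat shock genes (36.4%), 2 of them overlapping windows of Hsph1, and in 0.603% of all windows.

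Hspb1 (Hsp27), a small heat shock protein, and Bag3, a factor of chaperone-assisted autophagy, spread more within a genotype than any other tested member. Hspb1 measured 5.35, 4.93 and 5.76 on the Gata3-/- arrays, against 6.81, 4.96 and 6.60 on the Gata3+/- arrays. Bag3 measured 8.42, 7.47 and 8.74 on the Gata3-/- arrays, against 8.16, 7.13 and 8.72 on the Gata3+/- arrays. In both genes replicate 2 was the lowest array of each genotype. The genotype differences of -0.78 for Hspb1 (95% interval -2.10 to 0.54) and 0.20 for Bag3 (95% interval -1.05 to 1.46) were within that spread.

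Summed intensity of the 15 OP9 stroma markers, of which 12 reached the minimum, was 6642, 3940 and 15022 on the Gata3-/- arrays and 15153, 4826 and 16021 on the Gata3+/- arrays. This sum too was lowest on replicate 2 of each genotype. Among the markers that reached the minimum, Cxcl12, Pdgfrb and Postn departed from this, and the rest were lowest on replicate 2 of both genotypes. Cxcl12 was highest there, at 9.18 in Gata3-/- and 9.43 in Gata3+/- cells. Pdgfrb in Gata3-/- and Postn in Gata3+/- cells were lowest on replicate 1. The part of stroma in the spread of Hspb1 and Bag3 was not tested, and these genes were set against this list after their values were seen.

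**Figure D4:**
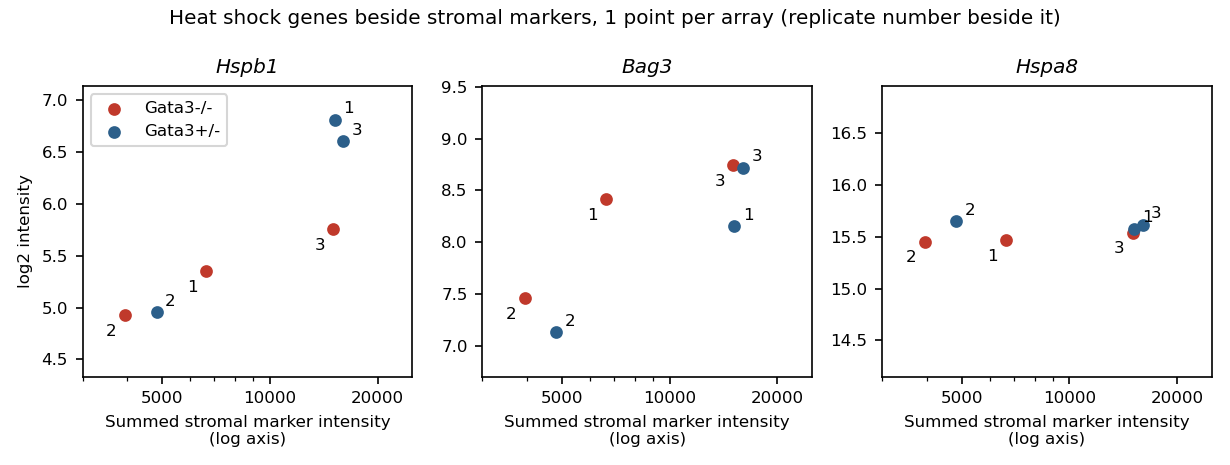
Log2 intensity of Hspb1, Bag3 and Hspa8 on the vertical axis against the summed intensity of the stromal markers on a log axis, with 1 point per array, its replicate number beside it, and the same vertical span in each panel. The arrays numbered 2 sit at 3940 and 4826 and carry the lowest Hspb1 and Bag3, while Hspa8 varies little.

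Several members lie on a chromosome whose genes were shifted as a whole. Genes on chromosome 11 had a median difference of 0.33 over 886 tested genes, with 94 higher and 2 lower past the threshold, beside a median of -0.04 over genes outside chromosomes 6, 11 and 14. The chromosome 11 members are Canx, P4hb, Derl2, Xbp1 and Ern1. With each chromosome's median level taken off each array, Derl2 was at 0.07, Ern1 at -0.09, Canx at -0.27 and P4hb at -0.37 (adjusted p = 0.109). Xbp1 turned to -0.29 (adjusted p = 0.158).

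None of the 5 passed the threshold on either scale. On the centred scale Dnajc3 passed, at -0.59 (adjusted p = 0.0477), while Pdia6, at -0.51 (adjusted p = 0.0532), and Atf6, at -0.56 (adjusted p = 0.0691), did not. Dnajc3 lies on chromosome 14, where calls were frequent before centring, with 28 of 342 tested genes lower and 28 higher past the threshold. Outside chromosomes 6, 11 and 14, 210 of 8557 were lower and 138 higher. Of the 15 ER folding factors, 11 lie outside chromosomes 6, 11 and 14. Of these 11, 10 were below 0 and 8 were lower without overlap, with a median of -0.29. Among all 8557 tested genes outside these chromosomes, 18.6% were lower without overlap and 11.4% higher. The part of the chromosome 11 shift in its members' values was not tested beyond this centring.

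**Figure D5:**
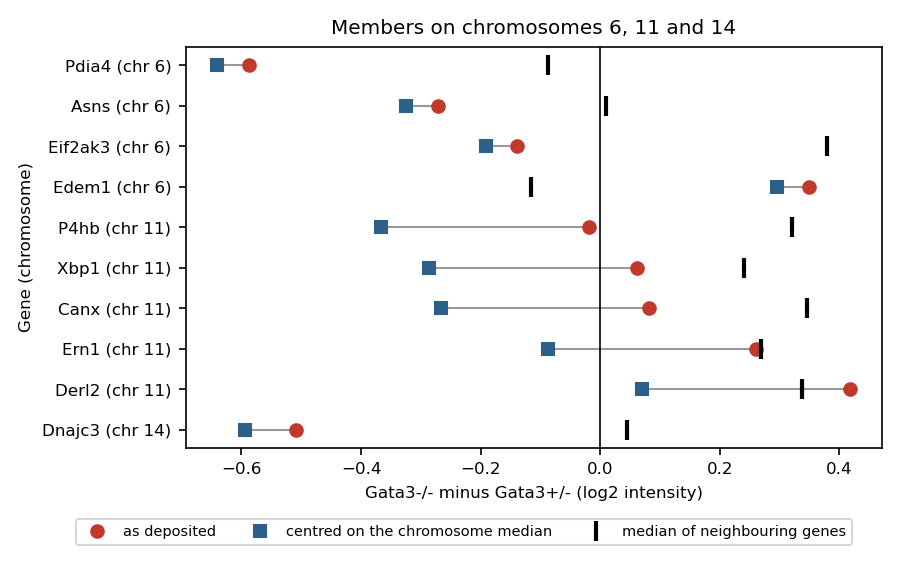
Gata3-/- minus Gata3+/- difference in log2 intensity of the members on chromosomes 6, 11 and 14, as deposited (circles) and with the chromosome's median taken off each array (squares), beside the median of the tested neighbours, 12 on either side (vertical marks). The chromosome 11 members move down by about the chromosome's shift, and Xbp1, Canx and Ern1 cross 0.

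Of 91 further genes of these pathways that were tested, 4 fell and 2 rose, beside 2.41% and 2.86% of all genes, which is near that background. All 4 that fell were among 21 genes of ER folding and translocation, of which 13 were lower without overlap and 2 higher, with a median of -0.15, beside 16.7% and 16.9% of all genes. They were Pdia5 (-0.76, adjusted p = 0.0289) and Txndc5 (-0.73, adjusted p = 0.0432), both protein disulfide isomerases, Sec63 (-0.53, adjusted p = 0.0486), a DnaJ protein of the translocon, and Spcs2 (-0.40, adjusted p = 0.0448), a subunit of the signal peptidase, all by limma.

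Among 12 further ERAD genes 0 passed, with 2 at an unadjusted p under 0.05. These were Erlec1 (0.37) and Nploc4 (0.46), both higher and on chromosome 11. With the chromosome's median taken off, Erlec1 was at 0.02 and Nploc4 at 0.11. Of 25 further genes of the integrated stress response, Mthfd2, a mitochondrial folate enzyme and Atf4 target, rose by 0.75 (adjusted p = 0.0392). Of 33 further cytosolic and mitochondrial chaperones, Cct7, a subunit of the TRiC chaperonin, rose by 0.66 (adjusted p = 0.0494). Both lie on chromosome 6, where the 12 tested genes on either side of each had medians of 0.60 for Mthfd2 and 0.56 for Cct7. With each chromosome's median taken off, Pdia5 (adjusted p = 0.0356) and Txndc5 (adjusted p = 0.0481) still passed, and Sec63 (0.0561), Spcs2 (0.0994), Mthfd2 (0.0591) and Cct7 (0.0587) did not by their adjusted p.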

How the data were processed

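RNA of 6 sorted cell samples was hybridised to mouse Affymetrix 3′ arrays. The deposited intensities are linear values that the authors made with GC-RMA, per the labels, and GCOS is named in the submitters' processing notes; the build is not given in the sources used here. Log2 was taken of these deposited intensities. Of 45101 probe sets, 20102 reached log2 4 on at least 3 arrays and were tested with limma 3.58.1 in R 4.3.3 (lmFit, eBayes, two-sided, Gata3-/- minus Gata3+/-, Benjamini-Hochberg over all of them). Differences are on the log2 intensity scale, and fold changes are the linear ratios that these differences stand for. Symbols came from the platform annotation, where 34945 probe sets had 1 symbol, 932 several and 9160 were not listed, with 64 control probe sets left out. The number of arrays, 3 per genotype, limits the precision. Arrays of 1 genotype correlated at 0.974 to 0.990 and those of different genotypes at 0.956 to 0.982. The test was run on simulated data first. Figures used matplotlib 3.10.9 in Python 3.11.15.

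The members, lists and tests were chosen with earlier results of these data known. Full values are given for members past the threshold, the 4 with the smallest p in each role, and Hspa5, Herpud1, Xbp1, Ddit3, Atf4, Hspa1a and Hsf1 (the last not analysed here); Bag3 was added after its values were seen. Of further pathway genes, those past the threshold are named. Alternatives changed the filter, scaling, model, probe set rule, chromosome centring and arrays used.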

Additional observations from a re-analysis of the deposited data

How the results depend on the processing

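The median difference of the ER folding factors lay between -0.34 and -0.26 under every alternative run, while the number of members past the threshold, 3, did not hold. It was 0 of 39 without the filter (98 genes of 18193), 0 with a 2-fold minimum (159 genes) and 0 without both arrays numbered 2 (3 genes). Without any 1 array it was 0 to 0 members and 0 to 4 genes, with 2043 to 2484 genes at an unadjusted p under 0.05. It was 8 with a variance trend and robust eBayes (824 genes), 9 with array weights (1224 genes), 7 with the mean of a gene's probe sets (731 genes) and 1, Dnajc3, with chromosome centring (312 genes). Stricter filtering gave 4 members, adding Pdia3, quantile normalization 3, and median centring 2, without Dnajc3 (adjusted p = 0.0537). Same-numbered arrays correlated at 0.005, 0.695 and 0.429 in their deviations from the genotype means, so 1 of the 3 pairs did not deviate together. Nothing in the labels ties the numbers to shared cultures, so whether they pair the arrays is not known. The replicate block gave 0 members and 298 genes, with adjusted p of 0.0671 for Pdia6, 0.0733 for Dnajc3 and 0.0809 for Atf6. Leaving out 1 array in turn gave adjusted p of 0.0699 to 0.117 for Pdia6, 0.0712 to 0.147 for Dnajc3 and 0.0942 to 0.122 for Atf6. The median of the stress regulators moved to -0.0474 under the stricter filter, -0.0363 with array weights and -0.14 with chromosome centring. Xbp1 reversed to -0.29 under chromosome centring. Fewer arrays and fewer or more probe sets tested are part of these settings, and for the rest the cause was not tested.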
